A study of Brachypodium distachyon with 6 samples.

Results

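The 200 transcripts described here were those whose measured level varied least between libraries of Brachypodium distachyon roots. They were 200 of 42868 annotated transcripts in the deposited count table. Each library's counts were divided by its total and multiplied by 1e6, which gives counts per 1e6 counted fragments (CPM). The choice started from the transcripts with a mean of at least 20 CPM over all 6 libraries and left out the 200 with the highest untreated means. From the 8072 that remained, called well-expressed rows below, it took the 200 with the lowest coefficient of variation (CV, the standard deviation over the 6 libraries divided by the mean). Because that choice used every library of both groups, the low spread of these transcripts is a description and was not tested.

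Brachypodium distachyon is a small grass used as a model for cereals, and line Bd21, grown here, is the source of its reference genome. The 3 2,4-D libraries came from roots of plants given a 1 h soak of the whole plant in the synthetic auxin 2,4-D (2,4-dichlorophenoxyacetic acid) at 50 µM, and carried nodule-like structures at harvest. The 3 untreated libraries came from roots of plants without the hormone, and the labels give no mock soak for them. All plants had 7 days on a low-nitrogen Fahraeus medium before the treatment date, and roots were harvested 7 days after treatment. The labels do not say how many plants each replicate held or whether replicates were grown apart.

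Auxin is a hormone that directs root growth and the formation of new organs, and 2,4-D acts like it but is more stable in plant tissue. In such treatments a set of transcripts with steady levels serves as a yardstick. Quantitative PCR, for example, divides the level of a gene of interest by that of reference genes assumed not to change. Genes with steady levels across tissues are often called housekeeping genes, and many of them act in protein synthesis, protein turnover, transport between cell compartments or RNA processing. In plants, introns near the start of a gene can raise its expression, and genes without introns are frequent among those that respond quickly to stress. The files give transcript identifiers without gene names or products, and 0 of these identifiers matched the gene table used as a reference. The roles of the 200 transcripts, and markers of root or green tissue, were therefore not examined. Their levels, exon structure and position are described instead.

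Library totals ranged from 12528548 to 14146109 counts, so that 20 CPM stood for 250.6 to 282.9 counts. Within a group, libraries differed by more than counting error, since chi-square divided by its degrees of freedom, near 1 for counting error alone, was 17.1 for 2,4-D replicates 1 and 2. This value was 78.8 and 91.1 between 2,4-D replicate 3 and those libraries, and 47.8 to 80.8 among the untreated libraries. 2,4-D replicate 3 thus stood apart from the other 2,4-D libraries, and the main results on exons and introns are also given for a choice made without it.

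The 200 constant transcripts spread over most of the range of abundance that the choice allowed. Their mean level ran from 20.1 to 547 CPM with a median of 79.5 CPM, against a median of 53.98 CPM in the other 7872 well-expressed rows. Split into 10 classes of nearly equal size by mean CPM, the well-expressed rows held 9 constant transcripts in the lowest class and 36 in the ninth. The CV of counting error alone, from Poisson statistics, had a median of 5.80% in the lowest class and 1.62% in the highest, while the CV that limited the choice was 7.31%. The median CV of all rows was 29.4% in the lowest class and 22.6% in the highest. The part of counting error in the number chosen per class was not tested. Among the 200, the CV ran from 2.66% to 7.31% with a median of 6.05%, and 13 lay below the CV of counting error alone. These 13 were all the well-expressed rows with so low a CV. Per kilobase of exon, the level of the 200 had a median of 36.3 CPM per kb and ran from 6.96 to 204 CPM per kb. Together they held 2.22%, 2.17% and 2.08% of all counts in 2,4-D replicates 1, 2 and 3, and 2.18%, 2.18% and 2.098% in untreated replicates 1, 2 and 3.

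**Figure D1:**
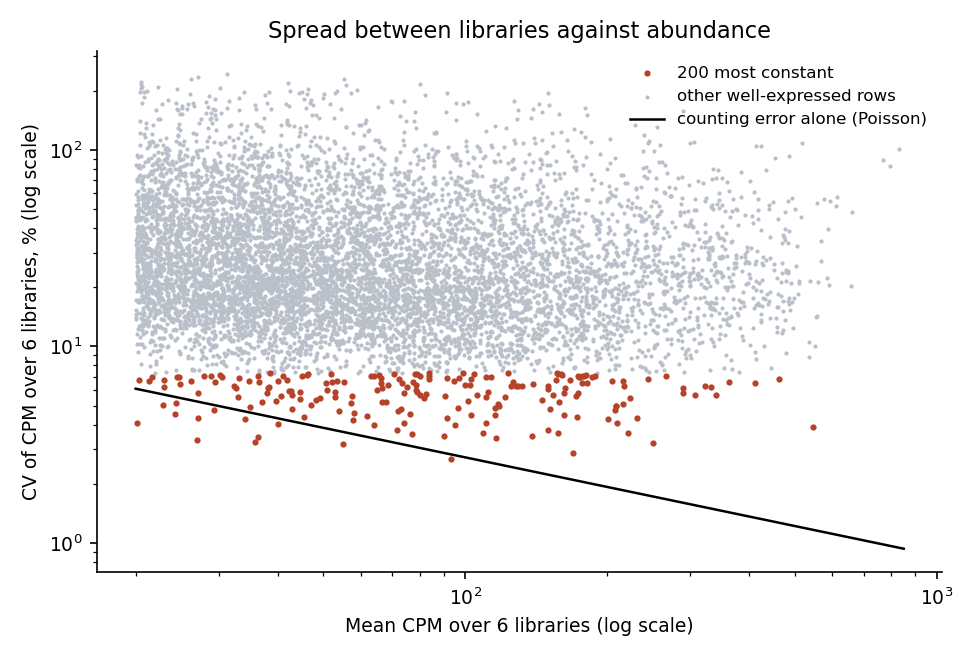
Coefficient of variation of CPM over 6 libraries (%, log axis) against mean CPM (log axis) for 8072 well-expressed transcripts; the 200 with the lowest CV are in colour and the line gives the CV of counting error alone. The 200 lie at 7.31% or less, a limit that the line approaches at low abundance. The CV of 13 of them is below that of counting error alone.

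The lowest CV, 2.66%, belonged to Bradi3g01310.1 (annotation version 2.1, chromosome 3, 835381 to 837393, minus strand, 2 exons). It had 95.7, 92.1 and 89.4 CPM in 2,4-D replicates 1 to 3 and 92.5, 93.6 and 96.1 CPM in untreated replicates 1 to 3, and the groups overlapped. Bradi1g04330.1 (chromosome 1, 2940934 to 2948521, plus strand, 14 exons) followed with a CV of 2.87%. Its levels were 175.9, 172.2 and 161.9 CPM in the 2,4-D libraries and 167.2, 168.0 and 171.9 CPM in the untreated ones, so that both the highest and the lowest value were in treated roots. Next came Bradi1g45747.1 (chromosome 1, 44249445 to 44253058, minus strand, 4 exons), which had 55.3, 53.2 and 53.3 CPM in the 2,4-D libraries and 57.1, 54.5 and 57.2 CPM in the untreated libraries. The groups overlapped there too, with 2 of 3 untreated values above all 2,4-D values. Bradi2g42017.2 (chromosome 2, 42519185 to 42537859, plus strand) was next in rank and had the most exon sequence of the 200, with 31 exons and 8453 bp of exon. It had 261, 250 and 252 CPM in the 2,4-D libraries and 247, 236 and 251 CPM in the untreated libraries, with a single untreated value inside the 2,4-D range. The 6 next in rank had CVs of 3.26% to 3.51%, mean levels of 27.0 to 138 CPM and 2 to 18 exons. The 10 most constant transcripts were thus neither uniformly long nor uniformly abundant.

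**Figure D2:**
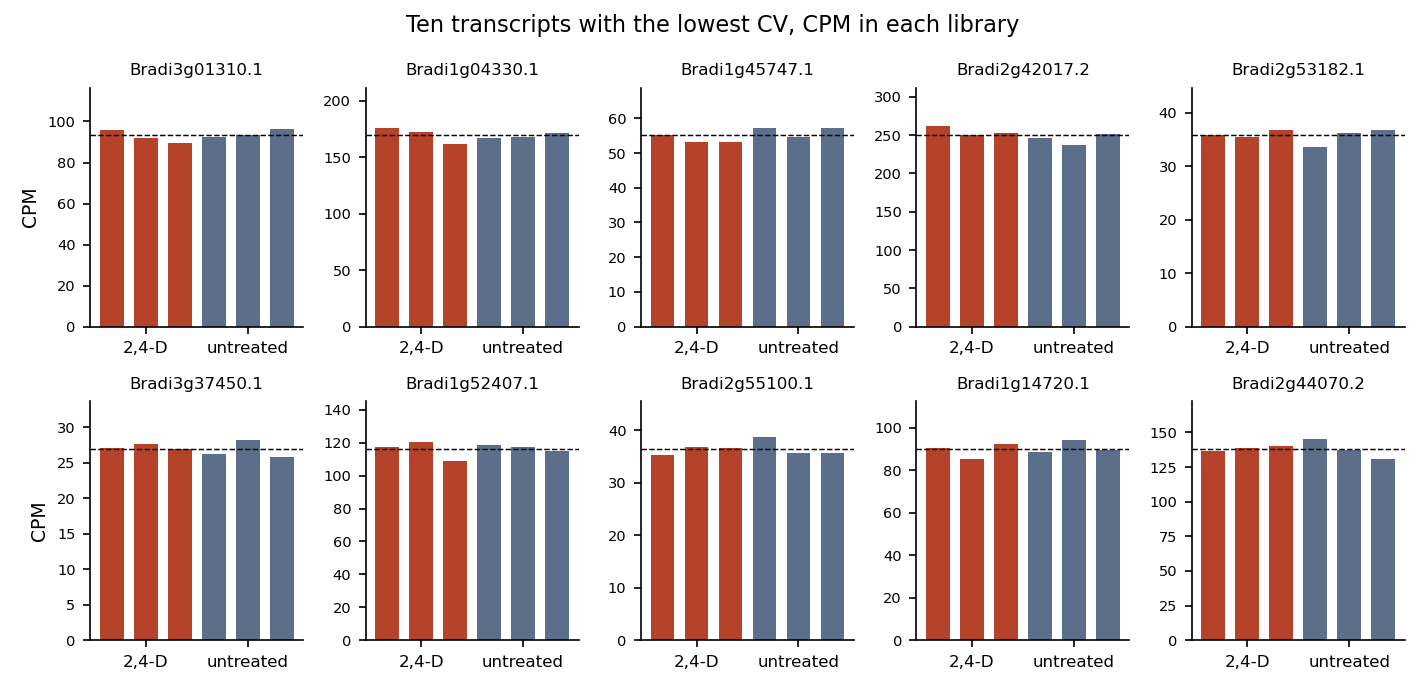
CPM in each of the 6 libraries for the 10 transcripts with the lowest CV; each bar is 1 library (2,4-D replicates 1 to 3, then untreated replicates 1 to 3), the dashed line is the mean of the 6 and each panel has its own axis from 0. In every panel the bars stay close to the line, with CVs of 2.66% to 3.51%.

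The most abundant of the 200 was Bradi3g40240.1 (chromosome 3, 42483577 to 42489279, plus strand, 11 exons), with 557 ± 6.15 CPM in 2,4-D roots and 537 ± 28.4 CPM in untreated roots (SD, n = 3 each). The next 4 by mean CPM had 340 to 463 CPM and CVs of 5.66% to 6.86%. Among these, Bradi3g59627.1 (chromosome 3, 58797732 to 58820815, plus strand) had the most exons of the 200, 49 of them. It had 472, 464 and 418 CPM in the 2,4-D libraries and 441, 513 and 468 CPM in the untreated ones, and the untreated range enclosed the 2,4-D range but for its lowest value. Compared per kilobase of exon, the highest level was that of Bradi1g46760.1 (chromosome 1, 45559202 to 45562917, minus strand, 7 exons), at 204 CPM per kb. The limit at rank 200 did not separate distinct sets. The 5 transcripts just inside it had CVs of 7.30% to 7.31%, and the 5 just outside had CVs of 7.31% to 7.35%, with 9 to 22 exons.

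The constant transcripts had more exons than other transcripts of like abundance. For this comparison the other 7872 well-expressed rows were weighted so that they fell into the 10 abundance classes in the same proportions as the 200. Of the 200, 90 (45.0%, exact binomial 95% interval 37.98% to 52.2%) had 10 or more exons, against 25.9% of the weighted other rows. When 200 were chosen without 2,4-D replicate 3, the share was 35.0%, below that interval, against 26.3% of the weighted rows. At the other end, 6 of 200 had no intron (3%, exact interval 1.11% to 6.42%), against 8.31% of the weighted rows. In the choice without 2,4-D replicate 3, 1% had no intron, against 7.34%. Of the 200, 26 had 2 or 3 exons (13.0%, 8.67% to 18.5%), against 23.6%. With 4 to 9 exons there were 78 (39%, 32.2% to 46.1%), against 42.2%. The median was 9 exons in the constant transcripts and 5 in the weighted rows. Exon number came from the annotation and was not used in the choice. The intervals treat transcripts as independent and cover neither the spread between plants nor the dependence on single libraries.

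The difference in exon number held in 9 of the 10 abundance classes taken singly. In the highest class, 18 of 25 constant transcripts (72.0%) had 10 or more exons, against 36.4% of the other 783 rows in it. In the lowest class, it was 1 of 9 (11.1%), against 13.4% of 799 rows. The classes below the median abundance held only 9 to 18 constant transcripts each, so their shares are coarse.

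**Figure D3:**
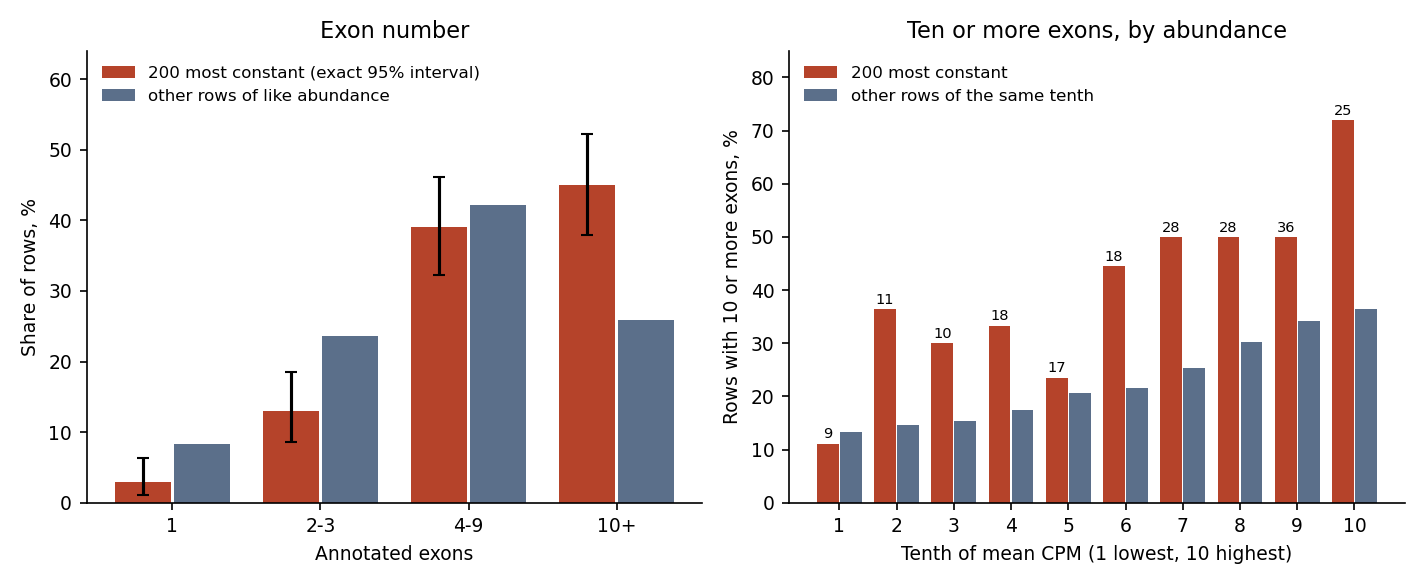
Left, share (%) of the 200 constant transcripts with each number of exons (bars with exact 95% binomial intervals) beside other rows weighted to like abundance; right, share (%) with 10 or more exons in each of 10 abundance classes, with the number of constant transcripts above its bar. With 10 or more exons the share was 45.0% in the constant transcripts and 25.9% in the weighted rows.

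More of the genomic length of the constant transcripts was intron, with a median share of 56.6%, against 49.5% in the weighted rows. The summed introns of the constant transcripts had a median of 3007 bp, against 1875 bp in the weighted rows. The whole transcribed span had a median of 5256 bp, against 3876 bp. Introns over 3000 bp in sum were present in 100 of 200 (50.0%, exact interval 42.9% to 57.1%), against 26.8% of the weighted rows. A span over 5000 bp was found in 56.5%, against 31.5%. When 200 were chosen without 2,4-D replicate 3, these shares were 41.5%, against 27.6% of the weighted rows, for introns and 48.5%, against 32.0%, for span. Summed exon length differed less, with a median of 2145 bp against 1910 bp. Single exons were shorter, with a median of 153 bp per transcript in the constant set and 218 bp in the weighted rows. When the other rows were weighted by summed exon length as well as abundance, 33.2% of them had 10 or more exons, so part of the gap to 45.0% went with length. When they were weighted by abundance and exon number, so that both sets had a median of 9 exons, summed introns still had medians of 3007 bp and 2537 bp. The share of intron in the genomic length then differed little, with medians of 56.6% in the constant set and 54.8% in the other rows. The median intron of a transcript was then 231 bp in the constant set and 163 bp in the other rows, while the median exon was the same to within a base pair (153 and 153.5 bp).

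Across all well-expressed rows, spread fell with exon number in steps. The median CV was 50.8% in 758 rows with 1 exon, 31.1% in 2023 rows with 2 or 3, 21.4% in 3401 rows with 4 to 9, and 16.9% in 1890 rows with 10 or more. The constant set lies at the low end of this slope, as 0.792% of rows with 1 exon entered it, 1.29% of those with 2 or 3, 2.29% of those with 4 to 9, and 4.76% of those with 10 or more. The order was the same within each group. In the 2,4-D libraries alone the median CVs were 32.1%, 23.1%, 16.9% and 12.1% from few to many exons, and in the untreated libraries alone they were 40.7%, 25.0%, 17.8% and 14.9%. Without 2,4-D replicate 3, they were 42.6%, 27.1%, 19.0% and 15.5%.

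Whole exon classes also shifted between libraries, and the shift was largest where introns were absent. The median ratio of a library's CPM to the row's own mean was 0.926, 0.996 and 1.28 for rows with 1 exon in 2,4-D replicates 1, 2 and 3, and 0.691, 0.654 and 0.969 in untreated replicates 1, 2 and 3. For rows with 10 or more exons, it was 1.04, 1.01 and 0.935 in the 2,4-D libraries and 0.995, 1.03 and 0.934 in the untreated ones. In a further choice, added after the data were seen, this shift was divided out of CPM class by class, which kept 118 of the 200. In that choice 56.0% had 10 or more exons, against 26.5% of the weighted other rows, and none had a single exon. The part of the division itself in this outcome was not tested. It adds spread to steady transcripts of a class that shifted, such as those with 1 exon, and removes spread from transcripts that moved with their class. Over all well-expressed rows, median CVs after the division were 45.3%, 31.4%, 21.1% and 16.4% with 1, 2 or 3, 4 to 9 and 10 or more exons. Before it they were 50.8%, 31.1%, 21.4% and 16.9%. The part of the shift in the exon number of the 200 was not tested.

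The constant transcripts did not all deviate in the same way, but their deviations, kept small by the choice, had a shared part. In 65 of the 200, the highest of the 6 values was in 2,4-D replicate 1. In 69 the lowest was in 2,4-D replicate 3, followed by 54 with the lowest in untreated replicate 3. The same counts are not given for other rows. The median distance of the 200 from their own means was 3.48%, 0.575% and -2.00% in 2,4-D replicates 1, 2 and 3. In untreated replicates 1, 2 and 3 it was 0.543%, 0.501% and -2.43%. The order of the libraries resembled that of all rows with 10 or more exons, whose median in both replicates numbered 3 was also the lowest. The 6 constant transcripts without introns could not show the shift of their class, since the choice allowed so little spread. Their median distance from their own means was -0.0654% in 2,4-D replicate 3 and 4.46% in untreated replicate 1, where all 758 rows with 1 exon had medians of 28.5% and -30.9%. These 6 had mean levels of 22.9 to 106 CPM, lay on chromosomes 1 and 4 and measured 603 to 2139 bp.

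No constant transcript was called different between 2,4-D and untreated roots, an outcome that the choice itself all but fixed. The edgeR quasi-likelihood test with Benjamini-Hochberg adjustment called 0 of 200 at an adjusted p under 0.05, where it called 2.18% of 20061 tested transcripts. At an unadjusted p under 0.05 it held 0 of 200 in either direction, against 19.4% of all tested (10.7% higher and 8.72% lower in 2,4-D roots). The DESeq2 Wald test called 0 of 200, against 11.7%, and limma with voom 0 of 200, against 2.47%. The smallest edgeR adjusted p among the 200 was 0.432. In 17 of 200, the 3 CPM values of one group lay wholly above those of the other, 9 of them higher and 8 lower in 2,4-D roots, against 26.8% of all tested transcripts (16.8% higher and 9.97% lower). Nothing is read from these shares, as the choice took rows with little difference between any libraries.

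The sign of their common fold change depended on how libraries were scaled. With TMM scaling, the median log2 fold change of the 200 (2,4-D over untreated) was -0.08, and the range was -0.25 to 0.08. With library totals, which is the scale on which they were chosen, it was 0.01. The median of all tested transcripts moved with it, being 0.02 under TMM and 0.10 under library totals. The median of the 200 minus that of all tested transcripts was -0.10 under either scaling, which moves both medians alike. The choice held the median of the 200 near no change under library totals, so nothing is read from this difference. This difference was -0.06 without 2,4-D replicate 3 and -0.16 without untreated replicate 3. The median absolute log2 fold change was 0.08 in the 200 and 0.41 in all tested transcripts, and this too follows from the choice.

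How steady such transcripts are in a library that took no part in the choice can be measured without that circularity. When each library was left out in turn and 200 were chosen on the other 5, the left-out library lay closer to the mean of those 5 in the chosen transcripts than in other rows of like abundance in 6 of 6 cases. The median distance was 8.16%, 5.34% and 14.9% for 2,4-D replicates 1, 2 and 3 in the chosen transcripts, against 16.8%, 12.2% and 24.9% in the weighted rows. For untreated replicates 1, 2 and 3 it was 11.6%, 10.2% and 11.1% in the chosen transcripts, against 18.9%, 23.0% and 19.1% in the weighted rows. Part of the distance was shared by the chosen transcripts. With its sign, their median was 7.09%, 0.449% and -11.1% in 2,4-D replicates 1, 2 and 3, against 0.171%, 0.0385% and -10.5% in the weighted rows. In untreated replicates 1, 2 and 3 the signed median was 4.17%, 2.36% and -7.97%, against -4.71%, -3.36% and -5.39%. Within 10% of the mean of the other 5 libraries were 156 of 200 chosen transcripts in 2,4-D replicate 2 (78.0%, against 42.4% of the weighted rows) and 69 of 200 in 2,4-D replicate 3 (34.5%, against 21.1%). The 6 cases share libraries and are not independent, and no p is given for them.

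**Figure D4:**
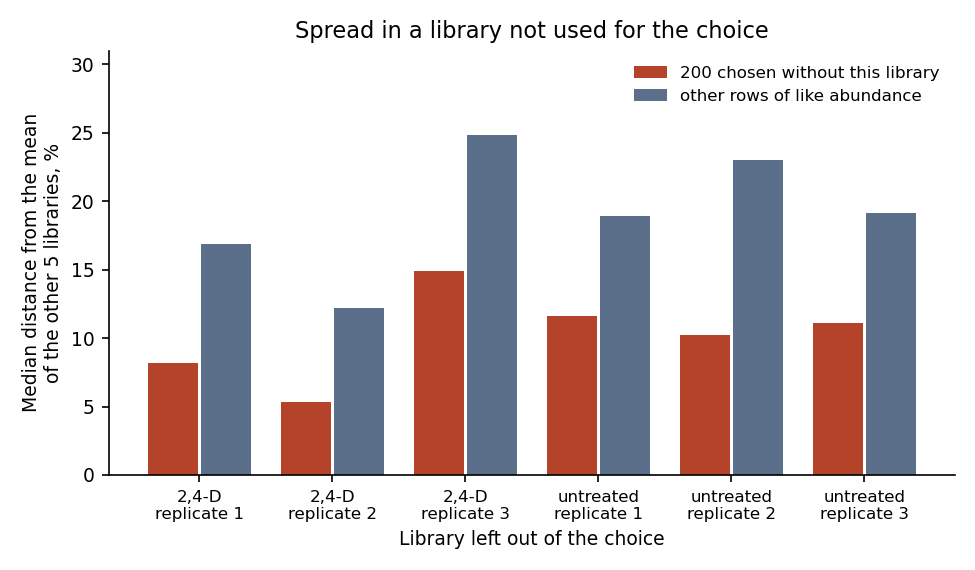
Median absolute distance (%) of a library's CPM from the mean of the other 5 libraries, for 200 transcripts chosen without that library and for other rows weighted to like abundance. The chosen transcripts lay at 5.34% to 14.9% and the other rows at 12.2% to 24.9%.

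Transcripts chosen as steady within one group also varied less than weighted rows in the other group. The 200 transcripts with the lowest CV over the 2,4-D libraries alone had a median CV of 1.94% there and 13.9% over the untreated libraries, where weighted rows had 19.4%. The 200 with the lowest CV over the untreated libraries alone had 2.18% there and 11.8% over the 2,4-D libraries, where weighted rows had 17.2%. The very low CVs in the group used for choosing follow from the choice. Their rise in the other group is therefore not read as a difference between the groups. Between 2,4-D and untreated means, the median absolute log2 difference was 0.16 for transcripts chosen in the 2,4-D libraries and 0.15 for those chosen in the untreated ones, against 0.29 and 0.30 in their weighted rows. Only 41 and 53 of these transcripts, chosen in 2,4-D and in untreated libraries, were among the 200 constant over all 6. Of each list, 34.5% and 35.5% had 10 or more exons, which was less than the 45.0% of the 200 and more than the 25.9% and 24.5% of their weighted rows.

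Membership was sensitive to scaling at this level of spread, while exon number was less so. With CPM scaled by TMM-adjusted library sizes, 106 of the 200 were chosen again, and with DESeq2 size factors 78 were. The median CV of the 200 themselves was 6.05% by library totals, 7.14% by TMM and 8.22% by DESeq2 size factors. Without 2,4-D replicate 3, 100 of 200 were chosen again, the fewest for any library left out, and 35.0% of that choice had 10 or more exons, against 26.3% of its weighted rows. In 18 of 18 other choices tried, the share with 10 or more exons was higher in the chosen transcripts than in their weighted rows. The choices that kept the 200 highest or summed counts per locus took the same 200, so they only repeat the main result. The share ran from 34.5% to 56.0% in the chosen transcripts and from 23.9% to 29.7% in the others. The 56.0% came from the choice with the exon-class shift removed, where the part of the division itself in this outcome was not tested. Without that choice the highest share was 50.0%, with a floor of 50 CPM. These choices overlap in transcripts and libraries and are not independent.

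**Figure D5:**
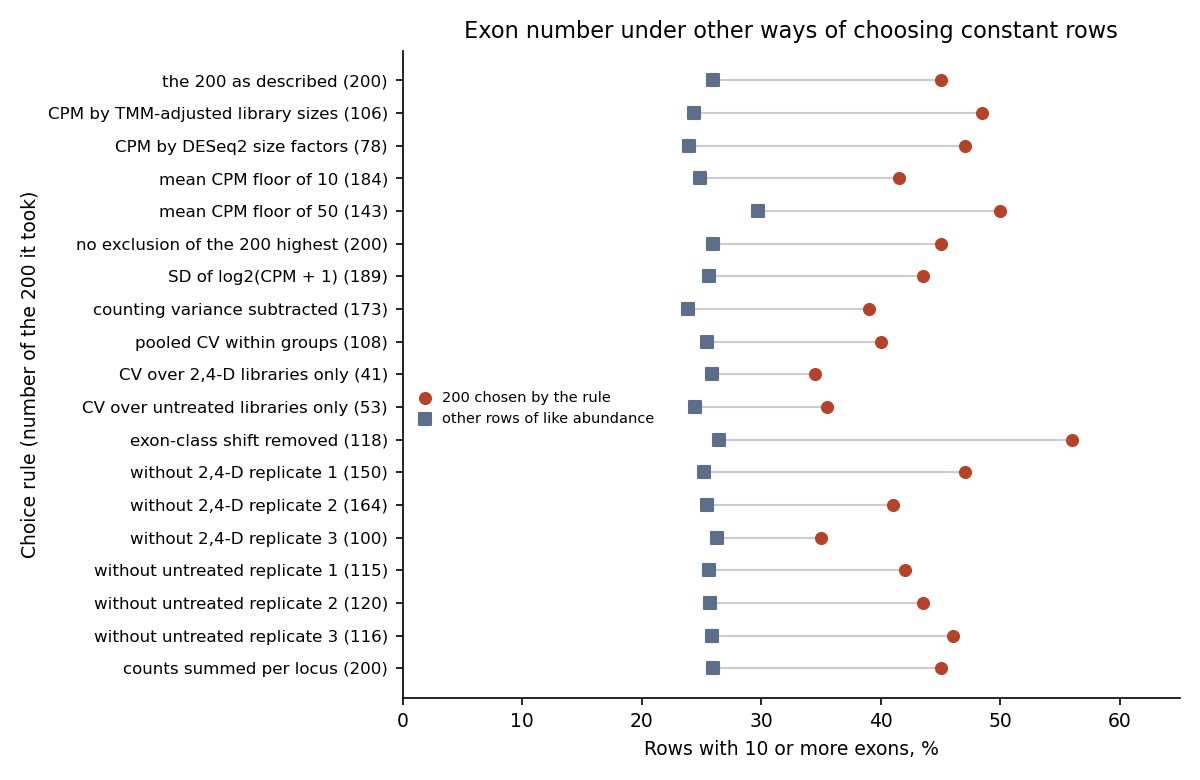
Share (%) with 10 or more exons in the 200 transcripts taken by each of 19 choice rules (circles) and in other rows weighted to like abundance (squares); the number in brackets says how many of the original 200 that rule took. In each rule the circle lies right of the square.

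The constant transcripts lay on all 5 chromosomes. Chromosome 1 held 73 of them (36.5%, exact interval 29.8% to 43.6%), against 29.3% of the weighted rows, but without untreated replicate 1 the choice put 29.5% there. The shares on the other chromosomes, 38 transcripts on chromosome 2, 54 on chromosome 3, 24 on chromosome 4 and 11 on chromosome 5, had exact intervals that included the weighted share. They were split over the strands, 99 on plus and 101 on minus. With the distance between a chromosome's end and its middle divided into 5 equal parts, the fourth from the end held 24 constant transcripts (12%, exact interval 7.84% to 17.3%), against 17.8% of the weighted rows, which lies just outside the interval. The shares in the other 4 parts had intervals that included the weighted share. Many intervals are given here and these parts were not examined under other choices, so nothing is read from the narrow miss. The median number of other loci with their midpoint within a 100 kb window around the locus was 13 in both sets. The gap to the next locus upstream had a median of 2083 bp, against 2961 bp in the weighted rows. A start facing the start of a neighbour on the other strand, with at most 1000 bp between them, was found in 25 (12.5%, exact interval 8.26% to 17.9%), against 8.41%, which lies inside the interval.

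Among the 200 loci, 1 pair were direct neighbours, Bradi1g68500.1 and Bradi1g68502.1 on the minus strand of chromosome 1 (67340414 to 67342041 and 67342533 to 67343545). A direct neighbour in the set was thus found for 2 of 200 (1.00%, exact interval 0.121% to 3.57%), close to the 1.36% of the weighted rows. A well-expressed transcript lay directly beside 91 of the 200 (45.5%), against 50.8% of the weighted rows. Of the 200, 13 overlapped another locus in their span (6.5%, against 6.41%). The library kit marked strand, but no strand option was set in counting, so fragments of overlapping loci could not be told apart by strand. Only 2 of the 200 belonged to loci with 2 or more annotated transcripts (1.00%, against 2.35%), where fragments in shared exons were generally not counted.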

How the data were processed

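The authors deposited raw counts of fragments per annotated transcript for 6 root mRNA libraries (stranded kit, per the labels' protocols), made, per the file headers, with featureCounts on annotation version 2.1, read pairs of 50 to 1000 bp, exons as features and no strand option. Tools named in the submitters' processing notes include Subread 1.4.3 and limma 3.28.7. The aligner settings are not given in the sources used here. All 6 columns of counts were matched to samples.

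The members and lists were chosen with earlier results of these data known. CPM was computed from column sums. Levels per kb divide CPM by summed exon length. Other rows were weighted to the 10 abundance classes of the members. The test on all transcripts was edgeR 4.0.16 in R 4.3.3 (TMM, filterByExpr with a minimum count of 10, robust quasi-likelihood F test, Benjamini-Hochberg adjustment), with DESeq2 1.42.0 and limma 3.58.1 as alternatives, and all were tested on simulated data. The p-values set the difference between the groups against the spread between these replicates. The labels do not say whether these replicates were grown apart. Intervals are exact binomial (Clopper-Pearson, scipy 1.17.1). They cover only the sampling of transcripts, treated as independent, and not the counting error of fragments. Transcripts named are the 10 with the lowest CV, the 5 most abundant, the 3 with most exons, the 3 longest and the 5 on either side of the limit; the members without introns, a pair of neighbours and one transcript in the closing section were singled out after their values were seen. Lists on product descriptions could not be applied, as no identifier matched the gene table of assembly version 3.0.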

Additional observations from a re-analysis of the deposited data

How the results depend on the processing

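The count of transcripts called over the whole table (437, edgeR) was 2328 with the DESeq2 Wald test, 231 with the replicate block and, without 2,4-D replicates 1, 2 and 3, 19, 82 and 256; without untreated replicates 1, 2 and 3 it was 72, 0 (edgeR, 2714 at an unadjusted p under 0.05) and 370. Other scalings, filters and voom gave 438 to 502. The calls among the 200 were 0 in each of these fits, also among loci with 1 annotated transcript. Their median log2 fold change was 0.0095 with library totals (log2) and -0.13 to -0.04 with each library left out. Whether replicate numbers pair the libraries was not settled. For numbers 1, 2 and 3, departures from the group mean had r of -0.12, 0.35 and 0.07 between the groups. The 0.35 was the highest r of any pair, but 2,4-D replicate 1 was closest to untreated replicate 2. Departures within a group cancel out, so these r depend on each other and cannot exclude pairing. Of the 200, another choice kept 106 (TMM sizes), 78 (DESeq2 size factors), 108 (pooled CV within groups), 41 (2,4-D only), 53 (untreated only), 118 (exon-class shift removed, added after the data were seen) and 100 to 164 (each library left out); choices on fewer libraries rest on fewer values. The share with 10 or more exons was 34.5% (2,4-D only), 35.5% (untreated only), 56.0% (exon-class shift removed) and 35.0% to 47.0% (each library left out); the cause of these moves was not tested. Weighting by exon length was also added after the data were seen. Near 20 CPM the CV of counting error alone approached the CV limit. The effect of depth on the choice there was not tested. A choice with counting variance subtracted kept 173 of the 200.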

Other observations

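Of the 200 transcripts, 77 were chosen under all 3 scalings, 66 were chosen again without each library in turn, and 30 met both conditions. Of these 30, 13 had 10 or more exons (43.3%), and their median was 9 exons. Only 2 transcripts were taken by each of the 18 other choices. One was Bradi2g42017.2, described above, with a CV of 3.24% by library totals, 3.74% by TMM and 4.34% by DESeq2 size factors. The other was Bradi1g17390.1 (chromosome 1, 13917339 to 13928501, plus strand, 18 exons), with CVs of 3.64%, 4.18% and 4.88% on the same scales. It had 114.0, 113.0 and 109.0 CPM in the 2,4-D libraries and 109.0, 103.8 and 105.7 CPM in the untreated libraries. Its groups overlapped, as the lowest 2,4-D value, 109.005 CPM, was below the highest untreated value, 109.031 CPM. No library outside these 6 was available to measure either transcript again.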
